A study of Mus musculus with 4 samples.

Results

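The genes described here are 10 transcription factors of the lung epithelium, Nkx2-1, Foxa1, Foxa2, Gata6, Cebpa, Sox2, Sox9, Klf5, Elf3 and Grhl2, taken by symbol from the 22547 features of the deposited single-cell tables. Their levels were read in 3509 epithelial cells that could be assigned to a type, of 33732 cells kept in 4 libraries. The mice carried Gramd2creERT2;mTmG, in which a tamoxifen-dependent Cre under the Gramd2 locus, a gene of type I alveolar cells, switches a membrane tdTomato reporter to membrane EGFP in the recombined cells and their descendants. The day 0 library held GFP+ lung cells from flow sorting, and the other 3 libraries held organoids grown from such cells for 8, 13 or 20 days and enriched for EpCAM before loading. For culture, the sorted cells were embedded in Matrigel together with MLg fibroblasts, an established mouse lung line, and fed medium with SB 431542, an inhibitor of the TGF-beta type I receptor. Each day is represented by 1 library, the labels give neither the number of mice nor their age, and the samples are labelled as nuclear RNA although the protocol describes cell suspensions.

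NKX2-1, a homeodomain protein, together with the forkhead proteins FOXA1 and FOXA2 and the zinc finger protein GATA6, activates surfactant and other lung-specific genes, and NKX2-1 is needed for lung identity itself. C/EBP-alpha acts in type II alveolar (AT2) cells, which make surfactant, whereas SOX2 marks and maintains the conducting airway and SOX9 marks the distal tips of the developing lung. KLF5, ELF3 and GRHL2 are general epithelial factors, and GRHL2 is known for its control of junction genes.

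Every day is a single library, so differences between days lack replicates and no p-value was computed. Levels are in CPM, the share of a gene in the summed unique molecular identifiers (UMIs) of all cells of a type and day, scaled to the same total in every pool, with exact 95% Poisson intervals that cover counting error only. Single cells were named from marker genes, none of which is among the 10 factors: AT1-like (type I alveolar, Ager and others), AT2-like (Sftpc and others), secretory-like (Scgb1a1 and others), basal-like (Krt5, Trp63), squamous-like (Krt13, Krtdap) and ciliated-like (Foxj1 and others). A difference was called where the ratio was at least 2-fold with at least 10 CPM on the larger side, and only between pools of at least 50 cells. Cells with at least 2 reporter UMIs were called EGFP-dominant at 80% or more EGFP and tdTomato-dominant at 20% or less, a split chosen after the data were seen, and ratios with only EGFP-dominant cells were taken down to 20 cells a pool.

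The libraries held 8902, 11390, 11445 and 10368 barcodes at days 0, 8, 13 and 20, with 31850454 to 154258012 UMIs. The median depth of the kept cells was 2558.5 UMIs at day 0 and 9527 to 17075 UMIs in culture. Epithelial cells with a type numbered 1020, 462, 1264 and 763, and much of the rest was myeloid-like (6427 of 7893 kept cells at day 8). The day 0 epithelium was mostly AT1-like (460 cells) and ciliated-like (448 cells), with 72 AT2-like and 39 secretory-like cells. The cultures held 291, 392 and 463 AT2-like cells and 86, 314 and 219 secretory-like cells, while 353 basal-like and 115 squamous-like cells came from day 13. AT1-like cells numbered only 34, 43 and 32 in culture, where their summed AT2 markers reached 14372 to 24574 CPM, against 970 CPM in AT1-like cells at day 0. Pairs of libraries shared 19 to 30 barcodes, at most 0.408% of the smaller library.

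**Figure D1:**
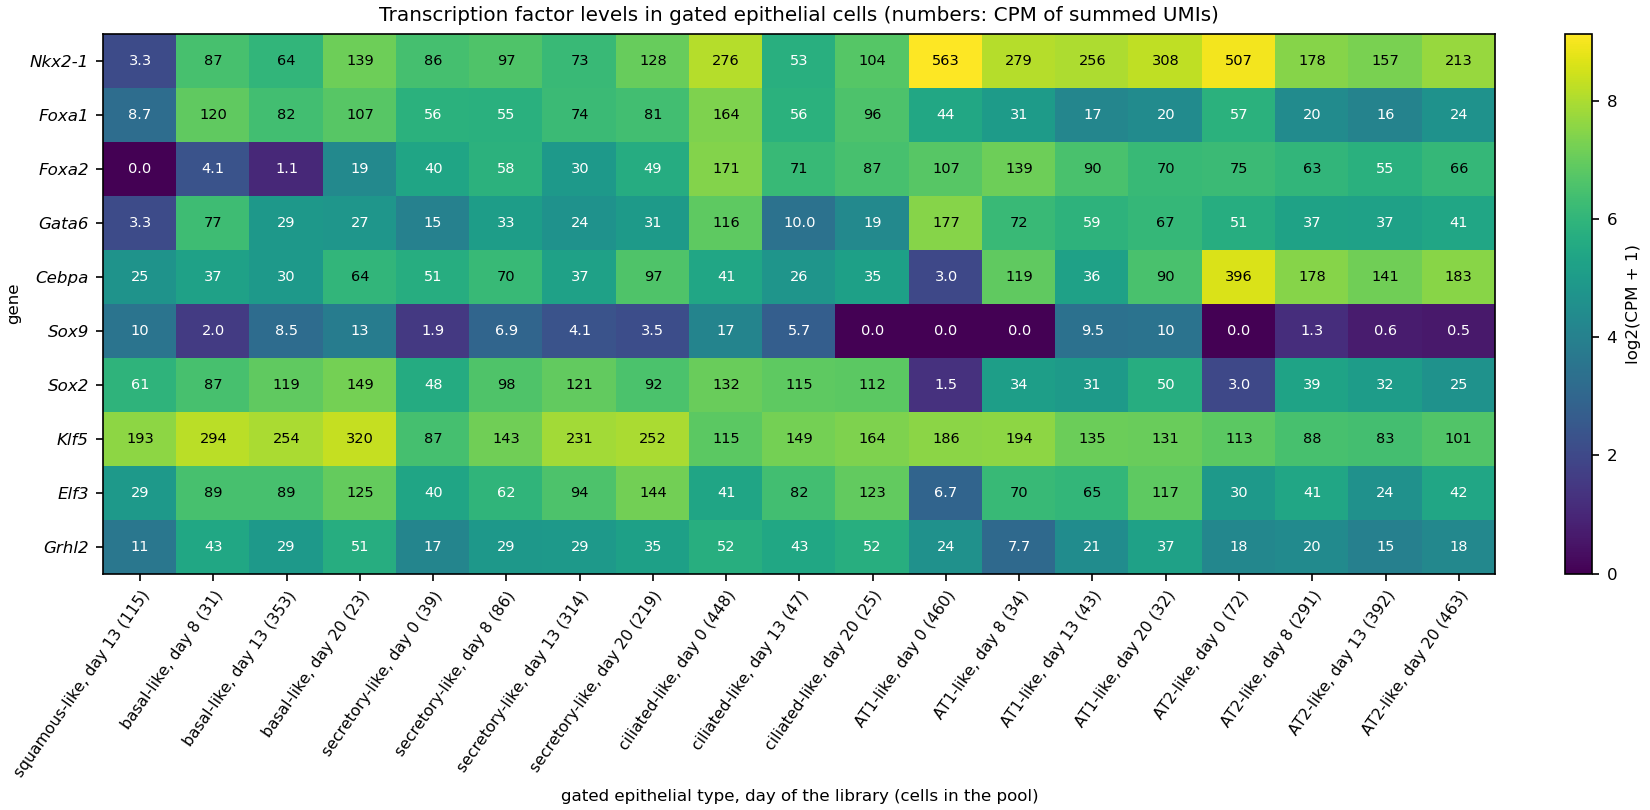
Levels of the 10 factors (rows) in each pool of at least 20 cells (columns, with type, day and number of cells); colour gives log2(CPM + 1) and the printed numbers are CPM. Nkx2-1 is brightest in AT1-like and AT2-like cells of day 0, at 563 and 507 CPM, and the squamous-like column is dark for Nkx2-1, Foxa1, Foxa2 and Gata6.

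The start regions of 4 of the factors are given as examples of the contrasts below. They are Foxa1 and Foxa2, a pair of related genes that part ways in basal-like cells, Cebpa and Sox2. At day 0 Cebpa separates AT2-like from AT1-like cells, and Sox2 separates ciliated-like from alveolar cells. Each sequence runs from 250 bases before to 50 bases after the gene's start, 5′ to 3′ on the gene's strand, from the RefSeq promoter table of GRCm38.p6, which matched 6 of the 10 factors. Foxa1 lies on the minus strand at chr12:57546062-57546361, Foxa2 on the minus strand at chr2:148046920-148047219 (the most upstream of 3 starts), Cebpa on the plus strand at chr7:35119043-35119342 and Sox2 on the plus strand at chr3:34649745-34650044. Capitals mark matches to the motifs searched on both strands.
Foxa1: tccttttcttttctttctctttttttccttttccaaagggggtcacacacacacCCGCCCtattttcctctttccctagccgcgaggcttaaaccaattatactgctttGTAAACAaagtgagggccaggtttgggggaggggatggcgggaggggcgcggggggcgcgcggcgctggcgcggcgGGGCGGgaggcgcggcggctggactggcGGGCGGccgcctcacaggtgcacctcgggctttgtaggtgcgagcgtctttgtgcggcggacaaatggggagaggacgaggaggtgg
Foxa2: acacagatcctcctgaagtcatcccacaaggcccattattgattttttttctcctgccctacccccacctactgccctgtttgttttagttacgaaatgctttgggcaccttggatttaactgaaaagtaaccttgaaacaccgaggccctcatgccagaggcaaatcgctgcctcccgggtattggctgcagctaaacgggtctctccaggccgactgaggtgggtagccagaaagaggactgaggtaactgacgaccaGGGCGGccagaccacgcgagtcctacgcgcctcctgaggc
Cebpa: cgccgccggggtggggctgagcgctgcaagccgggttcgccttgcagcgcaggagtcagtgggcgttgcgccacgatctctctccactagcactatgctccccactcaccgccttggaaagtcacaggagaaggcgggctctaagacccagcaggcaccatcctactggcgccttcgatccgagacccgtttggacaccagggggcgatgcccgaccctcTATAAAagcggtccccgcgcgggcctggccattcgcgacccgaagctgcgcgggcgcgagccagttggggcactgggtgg
Sox2: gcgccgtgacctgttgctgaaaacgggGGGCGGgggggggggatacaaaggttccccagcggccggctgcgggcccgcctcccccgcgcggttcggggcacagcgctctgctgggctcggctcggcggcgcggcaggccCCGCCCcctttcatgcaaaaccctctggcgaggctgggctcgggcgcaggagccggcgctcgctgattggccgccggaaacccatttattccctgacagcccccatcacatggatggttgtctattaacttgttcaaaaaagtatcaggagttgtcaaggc
The motifs searched were GGGCGG, known as the GC box, TGTTTNC, bound by forkhead proteins, TATAAA, the core promoter element, ACAATG, bound by SOX proteins, CTCAAG, bound by NKX2-1, and AGATAA, bound by GATA factors. The Foxa1 window held 3 GC boxes and 1 forkhead match, which lies at position -141 on the opposite strand. The Foxa2 window held a single GC box 11 bases past the start and no forkhead match, the Cebpa window a TATA box at position -30, and the Sox2 window 2 GC boxes. Of 32851 promoter windows of this length, 35.7% held the GC box, 20.5% the forkhead site, 13.6% the TATA box, 12.6% the SOX site, 15.9% the NKX2-1 site and 11.2% the GATA site. These matches describe letters in the window and not binding.

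The name of the group was checked against the other cells of the same libraries. Foxa1, Foxa2, Sox2, Elf3 and Grhl2 were almost confined to epithelial cells: in the 10 pools of endothelial-like, myeloid-like, lymphoid-like and mesenchymal-like cells their highest levels were 1.20, 2.16, 1.09, 0.928 and 1.57 CPM. All epithelial cells together held 334, 145, 91.5 and 175 CPM of Nkx2-1 at days 0, 8, 13 and 20, and no other class held more than 6.49 CPM. Klf5 stood at 129, 124, 186 and 166 CPM in epithelial cells and at most 10.6 CPM elsewhere. Gata6, Cebpa and Sox9 went against the group's name. Gata6 stood at 105 CPM in epithelial cells of day 0, against 47.3 CPM in mesenchymal-like and 43.3 CPM in endothelial-like cells of that day. Cebpa, which also acts in myeloid cells, stood at 59.2 CPM in epithelial cells of day 0, against 145 CPM in myeloid-like cells of that day. Sox9 was lower in the epithelium of the cultures, with 3.51, 5.06 and 2.02 CPM in epithelial cells of days 8, 13 and 20 and 72.6, 69.6 and 61.5 CPM in mesenchymal-like cells. The cultures contain added fibroblasts, and their share in these mesenchymal-like pools was not tested.

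**Figure D2:**
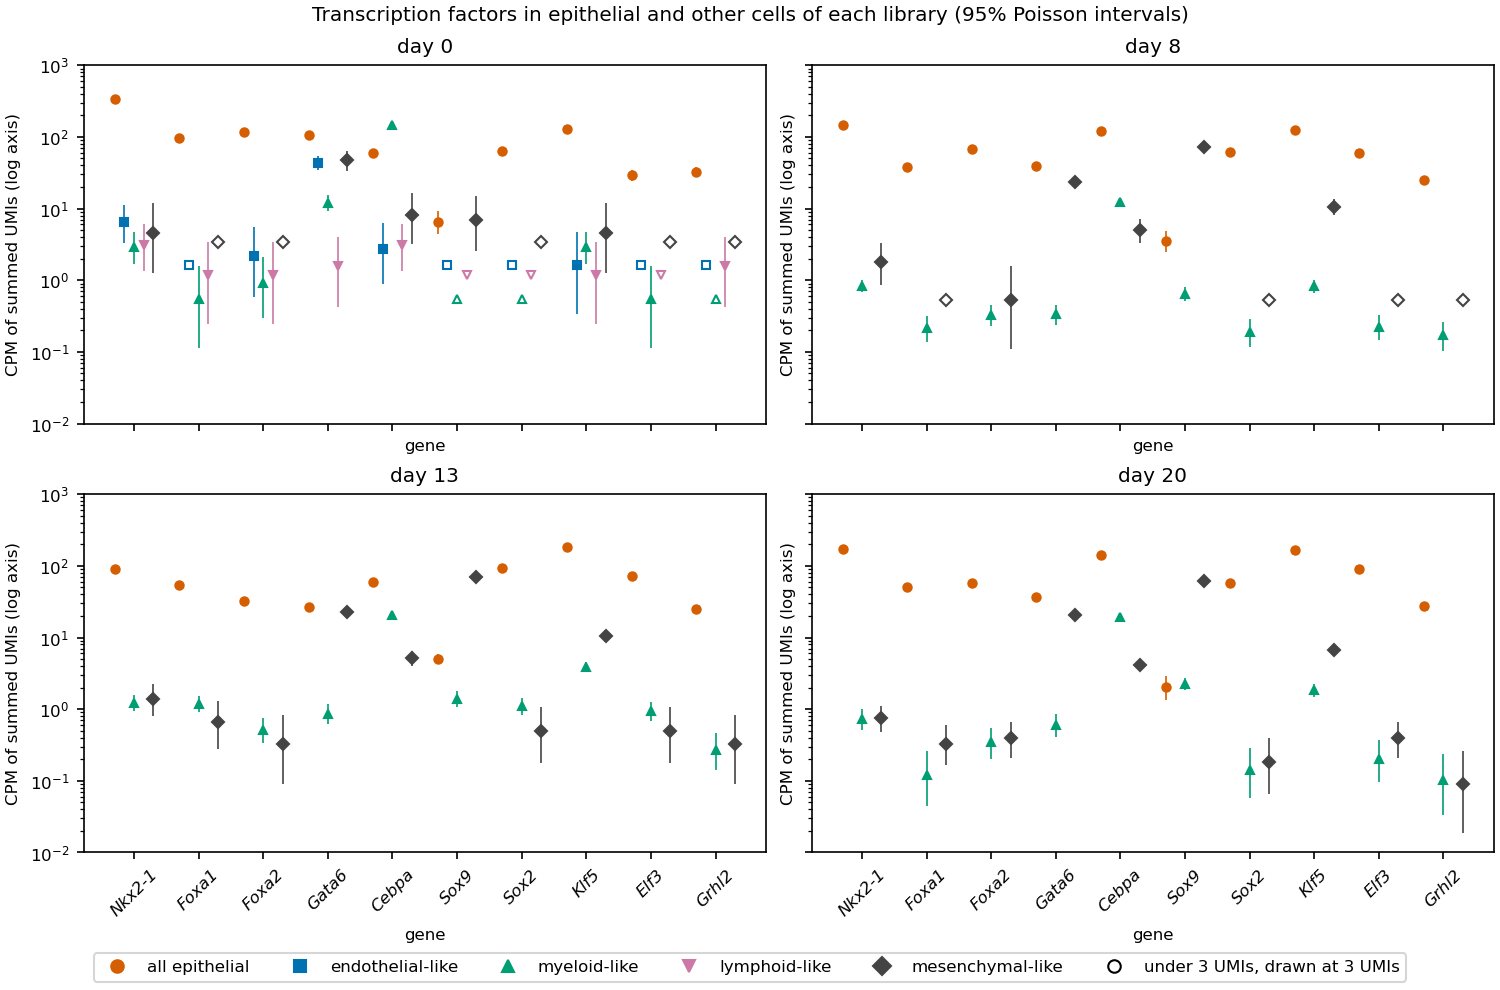
Levels of the 10 factors in all epithelial cells and in 4 other classes of cells, by day (CPM on a log axis, points with 95% Poisson intervals; open symbols are pools with fewer than 3 UMIs, drawn at 3 UMIs). Sox9 in the cultures lies at 2.02 to 5.06 CPM in epithelial cells and at 61.5 to 72.6 CPM in mesenchymal-like cells.

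Nkx2-1 was highest in the alveolar cells of day 0 and lowest in squamous-like cells. Squamous-like cells of day 13 held 3.28 CPM (1.20 to 7.13, from 6 UMIs), basal-like cells of day 13 63.6 CPM (57.1 to 70.6) and secretory-like cells 97.1, 73.0 and 128 CPM at days 8, 13 and 20. In the day 0 library ciliated-like cells held 276 CPM (251 to 302), AT1-like cells 563 CPM (524 to 605) and AT2-like cells 507 CPM (433 to 589), and the intervals of both alveolar types overlapped. AT2-like cells of the cultures held 178 CPM (166 to 191), 157 CPM (148 to 167) and 213 CPM (203 to 224) at days 8, 13 and 20. From high to low, the 11 pools thus ran through alveolar cells of day 0, ciliated-like, cultured AT2-like, secretory-like, basal-like and squamous-like cells, and basal-like cells overlapped secretory-like cells of day 13. After each cell was thinned to 2000 UMIs, Nkx2-1 was seen in 64.7% of AT1-like cells of day 0 and in 59.0%, 28.0%, 29.6% and 33.9% of AT2-like cells of days 0, 8, 13 and 20. Myeloid-like cells, which should lack the gene, gave thinned shares of 1.46%, 0.237%, 0.325% and 0.136% at the 4 days. Without thinning the shares in AT2-like cells were 83.3%, 81.8%, 83.4% and 89.6%, at median depths of 4140, 12733, 14243.5 and 14621 UMIs. Thinning left out 148 of 460 AT1-like cells and 11 of 72 AT2-like cells at day 0, and 3 to 5 AT2-like cells at each later day.

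Foxa1 and Foxa2 encode closely related pioneer factors, proteins that can open closed chromatin, but the cell types stood in a different order for each. Both were highest in ciliated-like cells of day 0, at 164 CPM (145 to 184) for Foxa1 and 171 CPM (152 to 192) for Foxa2. Foxa1 stood at 8.73 CPM (4.99 to 14.2) in squamous-like cells, 81.8 CPM (74.5 to 89.7) in basal-like cells of day 13 and 55.2, 74.4 and 81.3 CPM in secretory-like cells at days 8, 13 and 20. It was 44.0 CPM (33.5 to 56.7) in AT1-like cells of day 0 and 56.6, 20.1, 16.1 and 24.2 CPM in AT2-like cells of days 0, 8, 13 and 20. Thus Foxa1 was low in cultured AT2-like and in squamous-like cells. For Foxa2, squamous-like cells held no UMI, which allows up to 2.01 CPM, and basal-like cells of day 13 held 1.08 CPM (0.398 to 2.36, 6 UMIs). Secretory-like cells held 58.2, 29.8 and 49.1 CPM of Foxa2, AT1-like cells of day 0 107 CPM (90.5 to 126) and AT2-like cells 74.5, 63.2, 55.1 and 66.4 CPM at days 0, 8, 13 and 20. The basal-like level of Foxa2 overlapped that of myeloid-like cells of the same library, 0.516 CPM (0.334 to 0.761). Smaller basal-like pools of days 8 and 20 had 2 and 7 Foxa2 UMIs, or 4.06 CPM (0.491 to 14.7) and 18.7 CPM (7.51 to 38.5).

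Gata6 was highest in AT1-like cells of day 0. Squamous-like cells held 3.28 CPM (1.20 to 7.13), basal-like cells of day 13 28.5 CPM (24.3 to 33.4) and secretory-like cells 33.1, 24.1 and 30.8 CPM at days 8, 13 and 20. At day 0 ciliated-like cells held 116 CPM (101 to 134), AT1-like cells 177 CPM (156 to 201) and AT2-like cells 50.7 CPM (29.5 to 81.1), and cultured AT2-like cells held 37.2, 36.5 and 41.4 CPM. AT1-like and ciliated-like cells each stood apart, the AT2-like, secretory-like and basal-like pools overlapped their neighbours, and squamous-like cells lay below all of them.

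Cebpa separated the alveolar types of day 0. AT1-like cells of day 0 held 2.98 CPM (0.812 to 7.63), 4 UMIs among 460 cells, against 396 CPM (332 to 470) in AT2-like cells of the same library. AT2-like cells of the cultures held 178 CPM (166 to 190), 141 CPM (132 to 151) and 183 CPM (174 to 193) at days 8, 13 and 20. Squamous-like cells held 25.1 CPM, basal-like cells 29.98 CPM, secretory-like cells 69.7, 36.7 and 97.3 CPM at days 8, 13 and 20 and ciliated-like cells of day 0 41.4 CPM. Among the 11 pools of at least 50 cells, every AT2-like pool therefore lay above every other pool, and AT1-like cells of day 0 lay below all. The smaller AT1-like pools of the cultures held 119, 36.2 and 90.5 CPM at days 8, 13 and 20.

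Sox2 was nearly undetected in alveolar cells of day 0 and present in the other 9 pools. Squamous-like cells held 60.6 CPM (49.8 to 73.0), basal-like cells of day 13 119 CPM (110 to 129) and secretory-like cells 98.2, 121 and 92.0 CPM at days 8, 13 and 20. At day 0 ciliated-like cells held 132 CPM (115 to 150), AT1-like cells 1.49 CPM (0.18 to 5.38, 2 UMIs) and AT2-like cells 2.98 CPM (0.0755 to 16.6, 1 UMI). The ciliated-like, basal-like and secretory-like pools overlapped their neighbours in the order, and the squamous-like pool lay below all of them. Cultured AT2-like cells had 38.7 CPM (33.3 to 44.8), 31.9 CPM (27.7 to 36.6) and 24.5 CPM (21.1 to 28.3) at days 8, 13 and 20, against at most 1.09 CPM in myeloid-like cells. The thinned share of AT2-like cells with a Sox2 UMI was 0 of 61 cells at day 0, which allows up to 4.92% (3 cells of the total), and 10.8%, 4.63% and 4.78% at days 8, 13 and 20, against 1.39%, 36.4%, 32.9% and 25.9% without thinning. In basal-like cells the thinned share was 26.0%, and in myeloid-like cells of the 4 libraries it was at most 0.199%.

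Sox9 was low in every epithelial pool. Squamous-like cells held 10.4 CPM (6.24 to 16.2), basal-like cells of day 13 8.49 CPM (6.24 to 11.3), secretory-like cells 6.85, 4.10 and 3.48 CPM at days 8, 13 and 20 and ciliated-like cells of day 0 16.6 CPM (upper bound 23.9). No UMI was found in AT1-like or AT2-like cells of day 0, and cultured AT2-like cells held 1.30, 0.614 and 0.536 CPM from 6, 4 and 4 UMIs. Each of these pools overlapped the next in the order, and the part of RNA from mesenchymal-like cells in these low levels was not tested.

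Klf5 was the most even of the 10 over the 11 pools, from 83.2 CPM (76.3 to 90.5) in AT2-like cells to 254 CPM (241 to 268) in basal-like cells, both of day 13. Squamous-like cells held 193 CPM, secretory-like cells 143, 231 and 252 CPM at days 8, 13 and 20, ciliated-like and AT1-like cells of day 0 115 and 186 CPM and AT2-like cells 113, 87.8, 83.2 and 101 CPM at days 0, 8, 13 and 20. Elf3, an ETS factor of barrier epithelia, was highest in secretory-like cells, at 62.4, 94.3 and 144 CPM at days 8, 13 and 20, and lowest in AT1-like cells of day 0, at 6.71 CPM (3.07 to 12.7). Squamous-like cells held 28.9 CPM of Elf3, basal-like cells 88.9 CPM and cultured AT2-like cells 41.3, 23.9 and 41.5 CPM. Grhl2 ran from 11.5 CPM (7.10 to 17.5) in squamous-like to 52.0 CPM (41.7 to 64.1) in ciliated-like cells, and apart from the ciliated-like pool each neighbour overlapped the next.

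The AT1-like cells of the cultures were too few for a ratio, and their levels are given beside those of day 0. Nkx2-1 stood at 563, 279, 256 and 308 CPM and Gata6 at 177, 72.3, 59.1 and 67.0 CPM in AT1-like cells of days 0, 8, 13 and 20. Cebpa stood at 2.98, 119, 36.2 and 90.5 CPM, Sox2 at 1.49, 33.6, 30.5 and 50.3 CPM and Elf3 at 6.71, 69.7, 64.8 and 117 CPM. Nkx2-1 and Gata6 were thus lower and Cebpa, Sox2 and Elf3 higher than at day 0 in each culture pool. Cluster 11, the AT1-like cluster of the cultures, held 132 cells, of which 39 were AT2-like. Its Sox2 and Elf3 were lower than in these pools, at 8.93 CPM (4.88 to 14.98) and 28.1 CPM (20.4 to 37.7). At day 13, 10 EGFP-dominant AT1-like cells had 0 Sox2 and 3 Elf3 UMIs, against 7 and 25 UMIs in 6 tdTomato-dominant cells. At day 8 Sox2 was 36.2 CPM in 4 EGFP-dominant and 36.9 CPM in 8 tdTomato-dominant cells, from 2 and 4 UMIs. At day 20, 4 EGFP-dominant cells had 1 Sox2 UMI and 5 tdTomato-dominant cells had 4 Sox2 UMIs. Elf3 UMIs in the same classes were 3 and 13 at day 8 and 2 and 8 at day 20. These counts are too small for a comparison of the classes. The AT1-like cells of the cultures also carried markers of other types. Their summed secretory markers were 14343, 21874 and 21086 CPM at days 8, 13 and 20, beside the AT2 markers given above. The part of cells with such markers in the levels was not tested. The ciliated-like cells of days 13 and 20 (47 and 25 cells) held 115 and 112 CPM of Sox2 and 53.3 and 104 CPM of Nkx2-1.

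**Figure D3:**
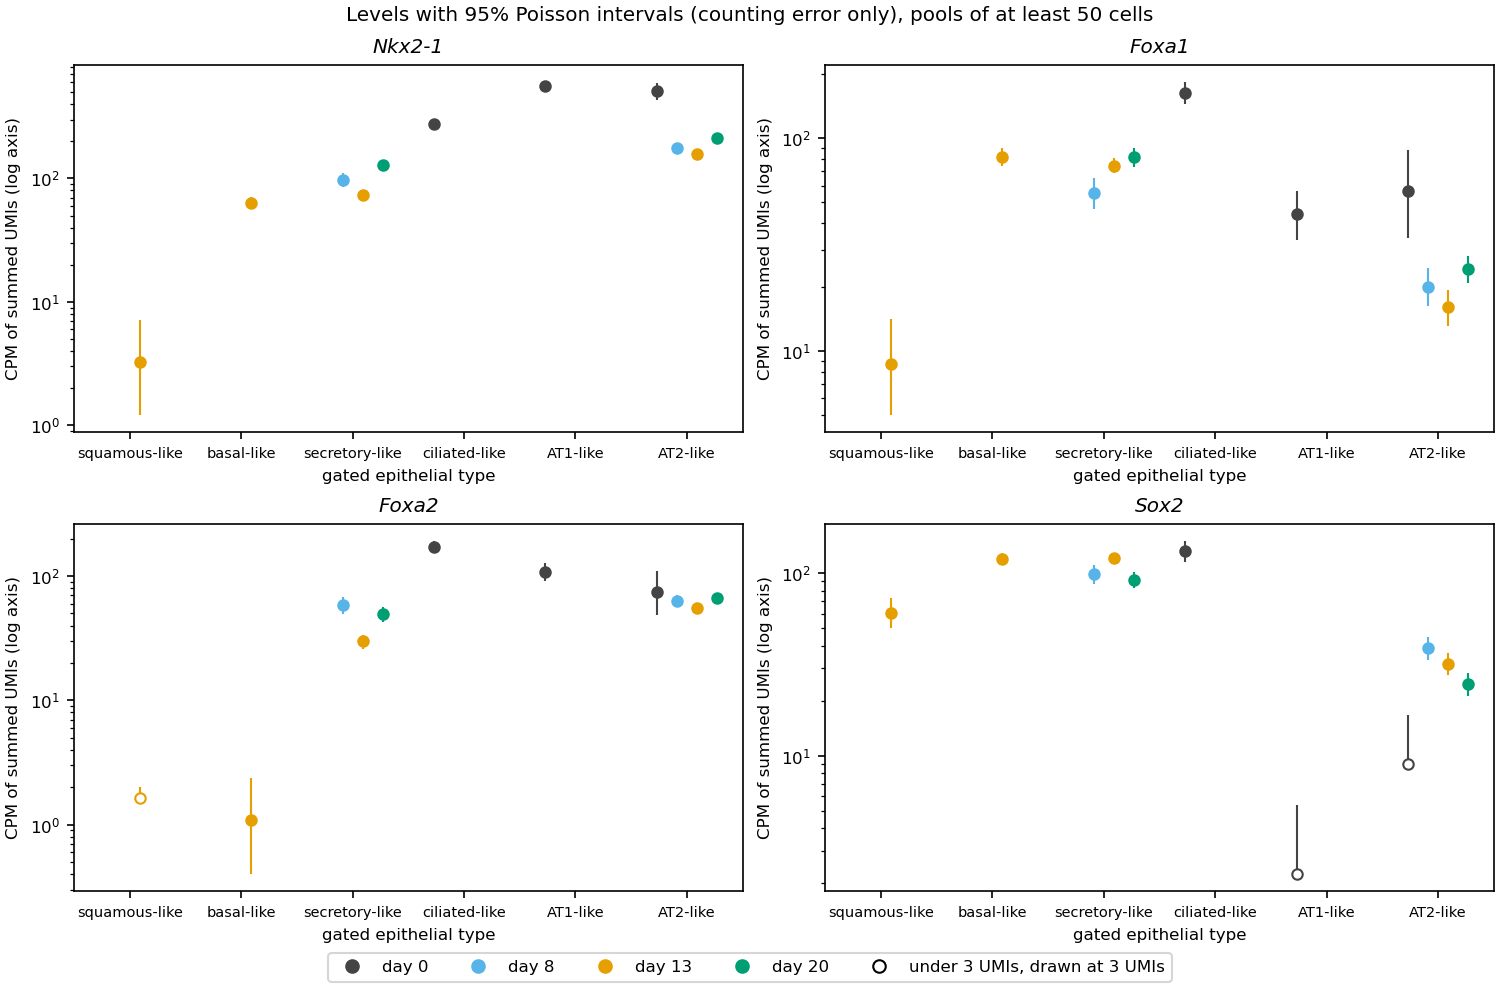
Levels of Nkx2-1, Foxa1, Foxa2 and Sox2 by epithelial type and day for the 11 pools of at least 50 cells (CPM on a log axis, points with 95% Poisson intervals; open circles are pools with fewer than 3 UMIs, drawn at 3 UMIs with the upper limit only). In basal-like cells of day 13 Foxa1 stays at 81.8 CPM while Foxa2 lies at 1.08 CPM, and of the 11 pools only the alveolar cells of day 0 have fewer than 3 Sox2 UMIs.

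Within the day 0 library, AT1-like cells differed from AT2-like cells in Cebpa, Elf3 and Gata6. Cebpa was lower in AT1-like cells by a log2 ratio of -7.06 (-8.95 to -5.67), or 133-fold, and Elf3 by a log2 ratio of -2.15 (-3.63 to -0.70), from 9 UMIs in AT1-like and 10 UMIs in AT2-like cells. Gata6 was higher in AT1-like cells by 1.81 on the log2 scale (1.10 to 2.61). That makes 1 factor higher and 2 lower of the 8 that reached 10 CPM, while of all 8877 genes compared 23.8% were higher and 15% lower. Nkx2-1 (0.15, -0.09 to 0.40), Foxa1 (-0.37, -1.13 to 0.46), Foxa2 (0.53, -0.09 to 1.20), Klf5 (0.71, 0.22 to 1.24) and Grhl2 (0.41, -0.86 to 1.96) did not reach the fold, and Sox2 and Sox9 had at most 2 UMIs on either side. The median log2 ratio was 0.28 over these 8 factors and 0.32 over all genes.

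Ciliated-like cells of day 0 were set against AT1-like cells of day 0, the pools with the most cells of that library. Of the 10 factors, 6 were higher and 1 lower in ciliated-like cells, against 26.9% higher and 16.6% lower of all genes. Sox2 had 223 UMIs in ciliated-like and 2 UMIs in AT1-like cells, a log2 ratio of 6.47 (4.60 to 9.52). Cebpa was higher by 3.80 (2.38 to 5.71), Elf3 by 2.60 (1.60 to 3.79), Foxa1 by 1.90 (1.49 to 2.33) and Grhl2 by 1.13 (0.53 to 1.76) on the log2 scale. Sox9 had 28 UMIs in ciliated-like and none in AT1-like cells. Against a floor of 3 UMIs over the AT1-like pool its observed fold was at least 7.41. The interval for counting error had a lower limit of 2.49 on the log2 scale. Nkx2-1 was lower, at -1.03 (-1.20 to -0.86). With only EGFP-dominant cells, 150 ciliated-like and 307 AT1-like, Nkx2-1 gave -0.71 and Grhl2 0.33, so neither passed the fold. Foxa2, Gata6 and Klf5 gave 0.68, -0.61 and -0.69 with all cells. The median over the 10 factors was 1.51, against 0.19 over all genes.

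Secretory-like cells of the cultures were compared with AT2-like cells of the same library at each day. Foxa1 and Sox2 were higher in secretory-like cells at all 3 days, with log2 ratios of 1.46, 2.21 and 1.75 for Foxa1 and 1.34, 1.92 and 1.91 for Sox2 at days 8, 13 and 20. Klf5 and Elf3 passed the fold at days 13 and 20, Klf5 with 0.70, 1.48 and 1.32 and Elf3 with 0.60, 1.98 and 1.79. Cebpa was lower at days 8 and 13, with -1.35, -1.94 and -0.91, and Nkx2-1 at day 13, with -0.87, -1.11 and -0.74. Foxa2 (-0.12, -0.89 and -0.44), Gata6 (-0.17, -0.60 and -0.43) and Grhl2 (0.54, 0.95 and 0.95) did not pass at any day, and Sox9 stayed under 10 CPM. With only EGFP-dominant cells of day 13, 100 secretory-like and 87 AT2-like, Foxa2 gave -2.42 and Gata6 -1.74, both past the fold. The widest of the intervals among the called ratios was that of Foxa1 at day 8, 1.07 to 1.85. The counts were 2 higher and 1 lower at day 8, where 9.72% and 5.73% of all genes were called, 4 higher and 2 lower at day 13, against 14.5% and 6.49%, and 4 higher and none lower at day 20, against 13.2% and 6.07%. The median over the 9 factors that reached 10 CPM was 0.54, 0.95 and 0.95, beside 0.19, 0.33 and 0.30 over all genes.

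Basal-like cells of day 13 were set against secretory-like cells of day 13. Foxa2 alone was called: it was lower in basal-like cells by a log2 ratio of -4.78 (-6.24 to -3.63), or 27.5-fold. The call therefore covers 1 of 9 factors, while 6.35% of all genes were higher and 6.57% lower. The other 8 ratios lay between -0.29 (Cebpa, -0.58 to -0.01) and 0.24 (Gata6, -0.07 to 0.56). Foxa1 gave 0.14 (-0.04 to 0.32) and Sox2 -0.02 (-0.16 to 0.13), and Sox9 was below 10 CPM on both sides. With only EGFP-dominant cells Foxa2 had 3 UMIs in basal-like cells and 9.61 CPM in secretory-like cells, under the 10 CPM needed for a call, with a log2 ratio of -2.63. Low Foxa2 beside Foxa1 was not confined to basal-like cells. Secretory cluster 17, with 127 of 128 cells from day 13, held 4.99 CPM of Foxa2 (2.65 to 8.53) and 79.8 CPM of Foxa1. Basal clusters 16 and 8 held 4.25 CPM (2.26 to 7.27) and 3.27 CPM (1.83 to 5.39) of Foxa2. The other secretory clusters of the cultures held 14.3 to 69.2 CPM of Foxa2.

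Squamous-like cells of day 13 differed from basal-like cells of day 13 in 5 of the 9 factors that reached 10 CPM, all lower. Nkx2-1 was lower by a log2 ratio of -4.28 (-5.73 to -3.14), or 19.4-fold, Foxa1 by -3.23 (-4.05 to -2.51), Gata6 by -3.12 (-4.59 to -1.97), Elf3 by -1.62 (-2.06 to -1.21) and Grhl2 by -1.33 (-2.06 to -0.66). In that comparison 5.68% of all genes were higher and 19.4% lower. Sox2 lay just inside the fold at -0.98 (-1.28 to -0.69), and Klf5 (-0.39), Cebpa (-0.26) and Sox9 (0.29, -0.56 to 1.09) were further from it. The median of the 9 was -1.33, against -0.35 over all genes. Foxa2 had 0 and 6 UMIs and was not compared. The naming rules differed: basal-like cells needed general epithelial markers (Epcam, Cdh1 and others), and squamous-like cells did not. The median of these markers was 4.98 UMIs per 10000 in squamous-like and 48.7 in basal-like cells. Basal markers, which squamous-like cells were allowed to keep, had medians of 120 and 92.4 UMIs per 10000. The part of these rules in the ratios was not tested. The pools differed in reporter class: 66 squamous-like cells were tdTomato-dominant and none EGFP-dominant, against 130 and 139 basal-like cells. In tdTomato-dominant squamous-like and basal-like cells Nkx2-1 was 1.52 and 50.3 CPM, Foxa1 8.36 and 71.9 CPM and Gata6 2.28 and 34.1 CPM. Elf3 was 22.8 and 75.2 CPM and Grhl2 10.6 and 25.8 CPM in the same cells. The cluster that held most squamous-like cells had 108 cells, all of day 13, and was led by Krt13 and Krtdap.

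**Figure D4:**
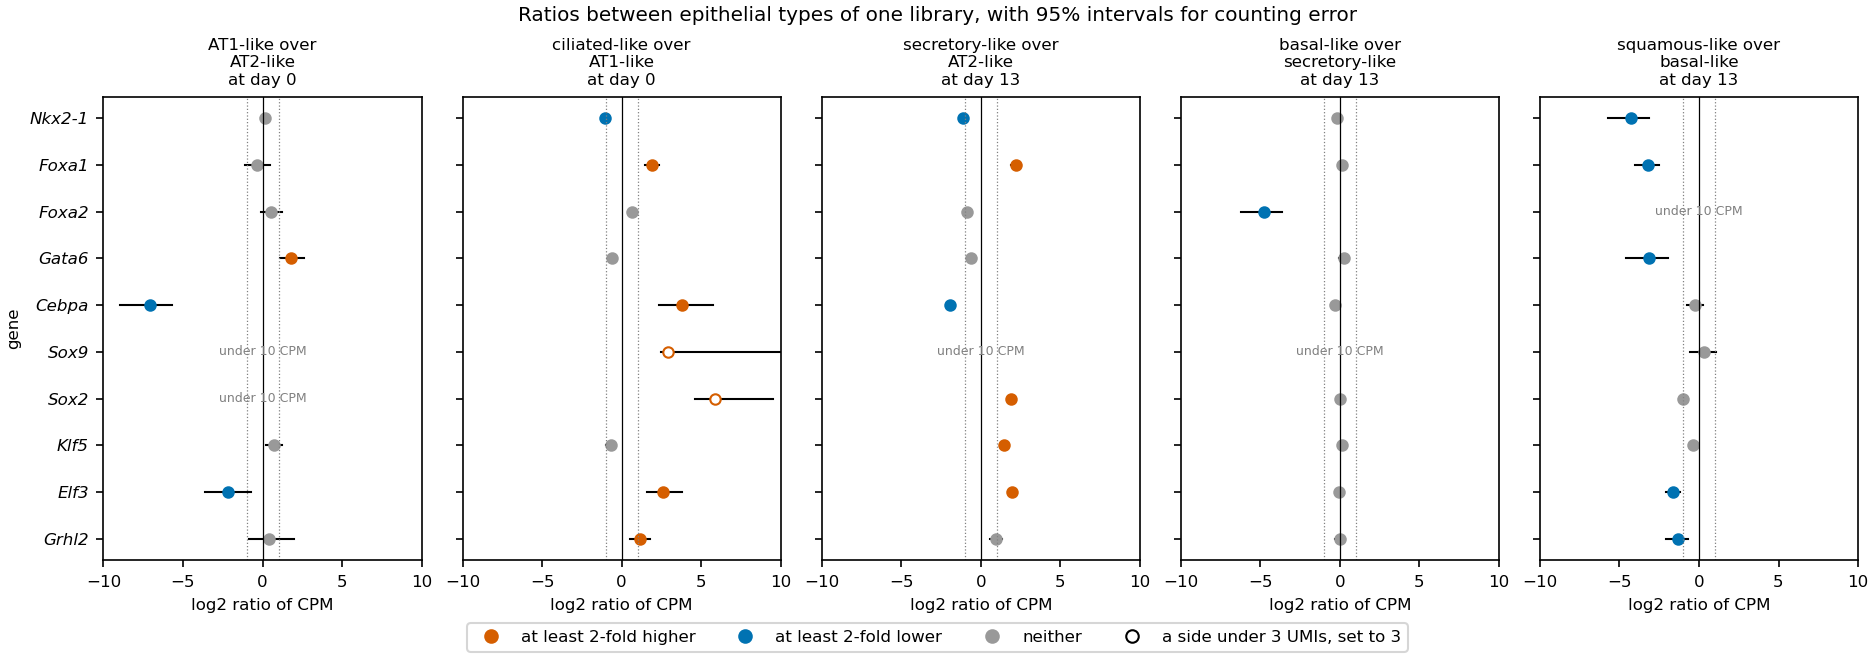
Log2 ratios of CPM for the 10 factors in 5 comparisons between types of the same library, with 95% intervals for counting error; dotted lines mark a 2-fold ratio, and open circles have fewer than 3 UMIs on a side, which was set to 3. Cebpa lies at -7.06 for AT1-like over AT2-like cells, Foxa2 at -4.78 for basal-like over secretory-like cells and Nkx2-1 at -4.28 for squamous-like over basal-like cells.

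Across days, AT2-like cells of day 8 were set against AT2-like cells of day 0. Nkx2-1 was lower at day 8 by a log2 ratio of -1.51 (-1.75 to -1.26), Foxa1 by -1.49 (-2.22 to -0.70) and Cebpa by -1.16 (-1.42 to -0.88). Sox2 was higher, with 179 UMIs at day 8 and 1 UMI at day 0, a log2 ratio of 3.70 (1.20 to 9.01). Thus 1 factor was higher and 3 were lower of 9, against 10.3% and 24% of all genes, and Foxa2 (-0.24), Gata6 (-0.45), Klf5 (-0.37), Elf3 (0.47) and Grhl2 (0.14) had intervals that included 0. At day 20 against day 0 the same 4 factors passed the fold: Nkx2-1 -1.25 (-1.48 to -1.01), Foxa1 -1.22 (-1.91 to -0.46), Cebpa -1.11 (-1.37 to -0.85) and Sox2 3.04 (0.54 to 8.35, from 183 UMIs and 1 UMI), where 6.9% of all genes were higher and 24.3% lower. Both comparisons use the same day 0 cells. With only EGFP-dominant cells (48, 44 and 69 AT2-like cells at days 0, 8 and 20, of which the pools of days 0 and 8 are under 50 cells) the log2 ratios at day 20 over day 0 were -0.99 for Nkx2-1, -0.95 for Foxa1 and -1.41 for Cebpa, so Cebpa alone reached 2-fold, and Sox2 had 3 UMIs at day 20 and none at day 0. At day 8 over day 0 they were -1.12, -1.54 and -1.60, all past 2-fold, and Sox2 had 6 UMIs at day 8 and none at day 0. The median over the 9 factors was -0.37 and -0.17, beside -0.26 and -0.38 over all genes. AT2-like cells of day 0 fell almost wholly in a cluster of their own (68 of 72 cells in cluster 2), whereas 138 of 291 at day 8 and 141 of 392 at day 13 lay in cluster 15 and 218 of 463 at day 20 in cluster 6. Summed secretory markers in AT2-like cells stood at 9845, 14782, 18110 and 24320 CPM at days 0, 8, 13 and 20, and their part in the Sox2 level was not tested. Library, culture, sort and depth change together with day 0 and cannot be told apart.

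Between culture days few of all genes passed the fold, and few of the factors did. In AT2-like cells no factor passed the fold at day 13 over day 8, where 1.34% of genes were higher and 2.19% lower, or at day 20 over day 13, where 1.96% were higher and 3.09% lower; Elf3 came nearest, at -0.79 (-1.10 to -0.47) and 0.79 (0.51 to 1.08). With only EGFP-dominant AT2-like cells (44, 87 and 69 at days 8, 13 and 20) Sox2 gave 1.22 at day 13 over day 8 and -2.89 at day 20 over day 13, against -0.28 and -0.38 with all AT2-like cells. In secretory-like cells none passed at day 13 over day 8, against 3.16% and 3.39% of genes, although Foxa2 (-0.97, -1.27 to -0.67) and Cebpa (-0.93, -1.20 to -0.65) lay close to the fold. At day 20 over day 13 Cebpa was higher by 1.41 (1.19 to 1.63), the only 1 of 9, where 3.86% of genes were higher and 4.89% lower, and Nkx2-1 (0.81) and Foxa2 (0.72) did not pass. Secretory clusters differed between these days: 127 of 128 cells of cluster 17 and 111 of 144 cells of cluster 18 came from day 13, while 128 of 144 cells of cluster 4 and 123 of 136 cells of cluster 13 came from day 20. Reporter classes of secretory-like cells differed too, with 100 EGFP-dominant and 133 tdTomato-dominant cells at day 13 and 1 and 110 at day 20. Cebpa at day 13 was 25.3 CPM in EGFP-dominant and 42.7 CPM in tdTomato-dominant cells, and tdTomato-dominant cells of day 20 held 86.1 CPM. The part of this shift in the Cebpa ratio was not tested.

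The mTmG reporter allowed cells of the same type and library to be split. At day 0, 307 of 369 cells with reporter UMIs in the AT1-like cluster, 48 of 55 in the AT2-like cluster and 152 of 248 in the ciliated-like cluster were EGFP-dominant. In the secretory cluster, with 32 of its 33 cells from day 0, none of 21 cells with reporter UMIs was EGFP-dominant, although the library is labelled as sorted GFP+ cells, and those secretory-like cells enter no ratio. Among AT2-like cells of the cultures, Sox2 was lower in EGFP-dominant cells at each day. Sox2 stood at 9.43 CPM in 44 EGFP-dominant and 48.2 CPM in 94 tdTomato-dominant cells at day 8, from 6 and 92 UMIs. At day 13 it was 22.0 CPM in 87 EGFP-dominant and 37.5 CPM in 157 tdTomato-dominant cells, a log2 ratio of -0.77 (-1.37 to -0.21). At day 20 it was 2.97 CPM in 69 EGFP-dominant and 28.7 CPM in 120 tdTomato-dominant cells, a log2 ratio of -3.27 (-5.59 to -1.66), from 3 and 68 UMIs. The summed secretory markers moved with it, at 4906, 12254 and 5792 CPM in EGFP-dominant and 20342, 21557 and 27420 CPM in tdTomato-dominant AT2-like cells at days 8, 13 and 20, and their part in the Sox2 level was not tested. Nkx2-1 and Gata6 were somewhat higher in EGFP-dominant AT2-like cells at day 20, at 261 and 185 CPM for Nkx2-1 (log2 ratio 0.50, 0.27 to 0.72) and 60.3 and 39.6 CPM for Gata6 (0.61, 0.12 to 1.09) in EGFP-dominant and tdTomato-dominant cells. Elf3 differed in sign between days: it was 33.9 CPM in EGFP-dominant and 21.8 CPM in tdTomato-dominant cells at day 13 (0.63, 0.08 to 1.18), and 24.7 and 48.5 CPM in EGFP-dominant and tdTomato-dominant cells at day 20 (-0.97, -1.66 to -0.34). Cebpa was 132 and 133 CPM at day 13 (-0.02, -0.27 to 0.23) in EGFP-dominant and tdTomato-dominant cells.

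Clusters of the epithelial cells, made without the 10 factors and without the reporters, split Sox2 among AT2-like cells in the same way. In cluster 7, where 106 of 176 cells with reporter UMIs were EGFP-dominant, AT2-like cells held no Sox2 UMI in 42 cells at day 8, 1.77 CPM (2 UMIs in 80 cells) at day 13 and 0.71 CPM (1 UMI in 95 cells) at day 20. In the other 8 pools of at least 20 cultured AT2-like cells by cluster and day, Sox2 ran from 27.3 CPM in cluster 6 at day 20 to 69.3 CPM in cluster 14 at day 8. Nkx2-1 in cluster 7 was 204, 182 and 268 CPM and Cebpa 163, 176 and 187 CPM at days 8, 13 and 20, so the cluster kept AT2-like levels of both. Summed AT2 markers reached 181680, 199570 and 244451 CPM in cluster 7 and 170801 to 283485 CPM in the other 8 pools. Summed secretory markers were 824, 1422 and 2377 CPM in cluster 7 and 11102 to 44867 CPM in the others. Scgb1a1, one of these markers, was 92.4, 172 and 265 CPM in cluster 7 and 9842 to 31025 CPM in the others. The part of the secretory markers in the Sox2 difference was not tested.

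**Figure D5:**
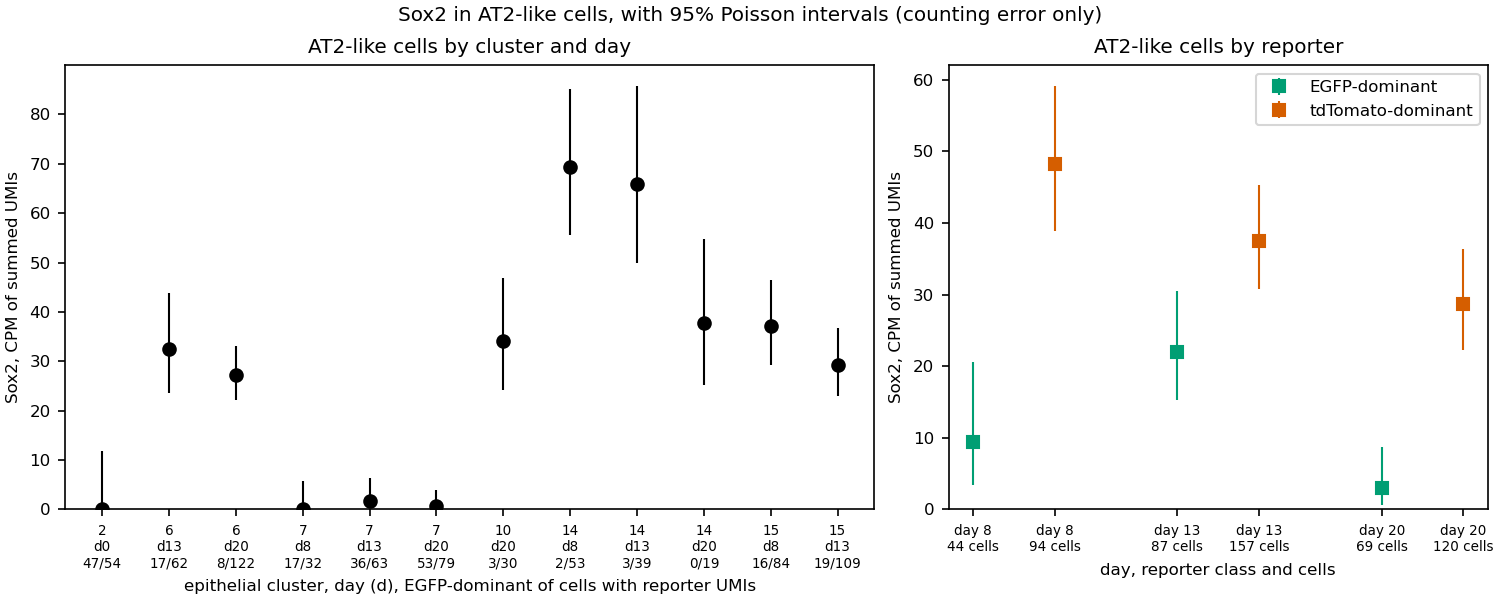
Sox2 in AT2-like cells, in CPM with 95% Poisson intervals; left, by epithelial cluster and day with the number of EGFP-dominant cells among cells with reporter UMIs, and right, by reporter class and day. The 3 culture pools of cluster 7 lie at 0 to 1.77 CPM and the other 8 culture pools at 27.3 to 69.3 CPM.

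Secretory-like and basal-like cells of day 13 could be split by reporter too. EGFP-dominant secretory-like cells (100) held 9.61 CPM of Foxa2, against 39.4 CPM in 133 tdTomato-dominant cells, a log2 ratio of -2.03 (-2.75 to -1.38), and 11.8 against 32.2 CPM of Gata6 (-1.45, -2.11 to -0.84). Elf3 was higher at 121 CPM in EGFP-dominant cells against 80.1 CPM (0.59, 0.35 to 0.83), and Sox2 was 136 against 118 CPM (0.20, -0.02 to 0.41). These classes also differed in other markers, with summed AT2 markers of 2775 CPM in EGFP-dominant and 10473 CPM in tdTomato-dominant cells and Scgb1a1 at 698 and 25136 CPM, and their part in the Foxa2 and Gata6 differences was not tested. EGFP-dominant basal-like cells (139) held 14.98 CPM of Gata6 against 34.1 CPM in 130 tdTomato-dominant cells (-1.19, -1.85 to -0.56), and 2.07 against 11.2 CPM of Sox9 (-2.44, -4.42 to -0.92, from 4 and 27 UMIs). Nkx2-1 was 85.3 CPM in EGFP-dominant and 50.3 CPM in tdTomato-dominant basal-like cells (0.76, 0.41 to 1.11). Klf5, Sox2 and Elf3 were higher in EGFP-dominant basal-like cells by 0.64, 0.58 and 0.58 on the log2 scale. Summed secretory markers stood at 18157 CPM in EGFP-dominant and 10587 CPM in tdTomato-dominant basal-like cells, and their part in these differences was not tested.

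Pairs of factors were counted in single cells thinned to 2000 UMIs. Sox2 and Sox9, which mark proximal and distal cells of the developing lung, were found together in 1 of 217 secretory-like cells of day 20 and in no cell of the other 10 pools; in ciliated-like cells of day 0, where Sox9 was highest, 0 of 357 cells allows a share of up to 0.84% (3 cells of the total), and the product of the single shares was 0.838%. Nkx2-1 and Cebpa were found together in 31.1% (19.9% to 44.3%, exact binomial) of AT2-like cells of day 0 and in 8.74%, 9.77% and 9.13% at days 8, 13 and 20, against 0.321% of AT1-like cells of day 0. Nkx2-1 and Sox2 were found together in 8.68% (5.98% to 12.1%) of ciliated-like cells of day 0, 3.57%, 4.21% and 5.53% of secretory-like cells at days 8, 13 and 20 and 4.29% of basal-like cells. Foxa1 and Foxa2 were found together in 7.84% of ciliated-like cells and in 0 of 350 basal-like cells, which allows a share of up to 0.857%; there the product of the single shares was 0.0441%. The product of the single shares was 31.9% for Nkx2-1 and Cebpa in AT2-like cells of day 0 and 10.4% for Nkx2-1 and Sox2 in ciliated-like cells, inside the intervals of the observed shares.

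A list of 53 other epithelial and lung transcription factors was described in the same comparisons; its markers Foxj1, Trp63, Hopx and Etv5 also named the cells. For AT1-like over AT2-like cells of day 0, 8 of 31 reached 2-fold higher and 13 lower, where 23.8% and 15% of all genes did, among them Tead1, a partner of YAP and TAZ, at 758 against 53.7 CPM, Klf6 at 616 against 149 CPM, and Elf5 and Ehf, both ETS factors, with no UMI in AT1-like cells against 86.4 and 53.7 CPM. For secretory-like over AT2-like cells 11 of 36, 14 of 35 and 12 of 34 were higher and 3, 5 and 7 lower at days 8, 13 and 20, where 9.72%, 14.5% and 13.2% of all genes were higher and 5.73%, 6.49% and 6.07% lower. At day 13 Sox21 was 68.6 against 5.68 CPM and Myb, which acts in the making of ciliated cells, 32.8 against 2.15 CPM, while Tfcp2l1 was 4.62 against 32.4 CPM. For basal-like over secretory-like cells 6 of 37 were higher and 5 lower, beside 6.35% and 6.57% of all genes, with Snai2 at 25.6 against 2.05 CPM. For squamous-like over basal-like cells 10 of 38 were higher and 13 lower, beside 5.68% and 19.4% of all genes: Elf5 stood at 75.9 against 0.903 CPM, Pitx1 at 231 against 14.6 CPM, Ovol1 at 38.2 against 5.60 CPM and Hes1, a Notch target, at 33.3 against 161 CPM. For ciliated-like over AT1-like cells 12 of 35 were higher and 9 lower, beside 26.9% and 16.6% of all genes, with Barx2 at 132 CPM against no UMI. For AT2-like cells of day 8 over day 0, 1 of 29 was higher and 14 lower, beside 10.3% and 24% of all genes, led by the Iroquois factors Irx1, at 26.2 against 447 CPM, and Irx2, at 25.7 against 173 CPM; at day 20 over day 0 it was 1 higher and 13 lower, beside 6.9% and 24.3% of all genes, with Foxp1 at 70.7 against 331 CPM.

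Genes known to depend on the factors were described from lists that share members with the markers of the cell types, so their direction between types is partly fixed by the naming of the cells. Of the NKX2-1-dependent lung genes, 12 of 16 were lower and none higher in basal-like than in secretory-like cells, beside 6.57% and 6.35% of all genes. In squamous-like against basal-like cells 10 of 14 were lower and 1 higher, beside 19.4% and 5.68% of all genes. The higher one was Hopx, at 302 against 64.5 CPM. In squamous-like cells Abca3, the lipid transporter of lamellar bodies, stood at 9.83 CPM, against 45.7 CPM in basal-like cells. In AT2-like cells of day 8 over day 0, 3 of 17 were higher and 7 lower, beside 10.3% and 24% of all genes, including Cldn18, a tight junction protein of the alveolus, at 251 against 996 CPM. Of the lipid and secretory genes linked to C/EBP-alpha, 10 of 10 were lower in AT1-like than in AT2-like cells of day 0, beside 15% of all genes, with Scd1, a fatty acid desaturase, at 10.4 against 3845 CPM. At day 8 over day 0 of AT2-like cells 1 of 11 was higher and 3 lower, beside the same 10.3% and 24%; Scd1 was 8947 against 3845 CPM and Hc, complement component C5, 18.4 against 587 CPM. Of the conducting airway genes linked to SOX2, 9 of 9, 8 of 9 and 8 of 8 were higher in secretory-like than in AT2-like cells at days 8, 13 and 20, beside 9.72%, 14.5% and 13.2% of all genes. In AT2-like cells of day 8 over day 0, 4 of 5 of these were higher and 1 lower, beside 10.3% and 24% of all genes, with Bpifa1 at 1438 CPM against no UMI and Scgb3a2 at 13.6 against 143 CPM. Of the junction genes linked to GRHL2, 0 of 10, 3 of 10 and 2 of 10 were higher in secretory-like than in AT2-like cells at days 8, 13 and 20, beside those same shares of 9.72%, 14.5% and 13.2%, with Cldn4 at 60.7 against 24.1 CPM at day 13. Of the distal tip genes linked to SOX9, 1, 1 and 1 were higher and 2, 2 and 1 lower of 6, 5 and 4 in that comparison, whose shares of lower genes were 5.73%, 6.49% and 6.07%, with Clu higher and Etv5 lower at all 3 days. Gastric and intestinal genes described after loss of Nkx2-1 were rare: at most 2 of 12 reached 10 CPM in any comparison, among them Tff2 at 73.1 against 0.216 CPM in secretory-like over AT2-like cells of day 8 and Tff1 at 35.5 CPM against no UMI in squamous-like over basal-like cells of day 13.

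Over the 11 pools of at least 50 cells, which share libraries, depth and marker naming, the factors' log2(CPM + 1) values were correlated as a description. Foxa1 and Grhl2 were most alike (r = 0.93), followed by Nkx2-1 and Gata6 (0.92), Nkx2-1 and Foxa2 (0.86), Sox2 and Sox9 (0.84), Foxa2 and Gata6 (0.80) and Sox2 and Elf3 (0.78). Nkx2-1 and Sox9 (-0.61), Cebpa and Klf5 (-0.57) and Nkx2-1 and Sox2 (-0.53) were least alike, and Foxa1 and Foxa2 gave 0.36. Sox9 had 0 UMIs in AT1-like and AT2-like cells of day 0. In AT2-like cells of days 8, 13 and 20 it had 6, 4 and 4 UMIs, so its correlations rest partly on levels near the floor. Among 9209 genes compared, the pattern most like that of Foxa2 was that of Gca (r = 0.98), followed by Prr15l and Myo5c (0.97 and 0.96), and the same 3 genes led over the 9 pools of at least 100 cells. For Nkx2-1 it was Lipo3 (0.98), for Foxa1 Erbin (0.96), for Gata6 Esyt1 (0.98), for Cebpa Thsd4 (0.94), for Sox2 Slc25a5 (0.97), for Sox9 Odc1 (0.98), for Klf5 Josd1 (0.95), for Elf3 Tprn (0.95) and for Grhl2 Gatd1 (0.96). Only 9 of the 30 genes named in this way, 3 for each factor, were named again over the 9 larger pools.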

How the data were processed

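Single-cell suspensions were processed with 10x Genomics 3′ v3.1 chemistry, per the labels' protocols. The submitters' processing notes name Cell Ranger 7.0.1 and mm10. The deposited matrices hold UMI counts per gene and barcode, including EGFP and tdTomato. Barcodes with at least 500 genes and at most 15% mitochondrial UMIs were kept. A cell was typed where its marker UMIs per 10000 passed a cut-off (AT1 75, AT2 400, secretory 300, basal 30, squamous 30, ciliated 40) and led the next type 1.5-fold. Pan-epithelial markers (Epcam, Cdh1 and others) and no other lineage were also required. Squamous-like cells were exempt from the pan-epithelial rule and had to lead only the types other than basal. Cut-offs were set on the markers after the files were seen. UMIs were summed per type and library into CPM with exact Poisson intervals; ratios have exact conditional intervals, shares exact binomial intervals, and a share of 0 the limit that 3 cells of the total give. Pools holding under 3 UMIs of a gene took a floor of 3 UMIs when calls were made. Clusters used Scanpy 1.11.5 (Leiden, resolution 1, 2000 genes without the factors and reporters, 30 components, 15 neighbours). Intervals cover counting error only, and UMIs of one cell are not replicates. Scrublet called doublets in only 1 library (255 cells), so it was used only in an alternative that removed its highest scores. Alternatives changed the filter, gate, scaling, weighting, fold, minimum and clusters. Named genes were the 10 factors and, per list, up to 3 genes in each direction with the largest fold, and 3 similar genes per factor. The factors and lists were chosen with earlier results of these data known. Python 3.11.15, SciPy 1.17.1, NumPy 2.4.6 and pandas 2.3.3 were used, and the scripts were tested on simulated data.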

Additional observations from a re-analysis of the deposited data

How the results depend on the processing

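Of 119 recomputed counts of called factors, 104 stayed within 1.5 times the reported count and 15 moved. At a 3-fold threshold, secretory-like over AT2-like cells of day 8 had 0 calls in place of 3. With types from Leiden clusters the counts were 2 for basal-like over secretory-like cells (in place of 1), 1 for AT2-like cells of day 13 over day 8 and 1 for day 20 over day 13 (each in place of 0), and 2 for secretory-like cells of day 13 over day 8 (in place of 0). With only EGFP-dominant cells they were 0, 1 and 1 for the first 3 of these, and 1 in place of 4 for AT2-like cells of day 20 over day 0. With no minimum above the floor they were 2 for basal-like over secretory-like cells and 1 for AT2-like cells of day 13 over day 8. For secretory-like cells of day 13 over day 8, a stricter cell filter and a stricter gate gave 1 each and equal weight per cell gave 2, and equal weight gave 2 in place of 1 at day 20 over day 13. The Sox2 ratio in AT2-like cells turned to -0.43 at day 8 over day 0 and -2.10 at day 20 over day 0 with only EGFP-dominant cells; both follow from setting the day 0 side, which had 0 UMIs, to the floor of 3 UMIs. Of 774 ratios, 715 kept their value within the counting interval, and of 740 levels, 605 did. The ratios that moved were concentrated in the setting with only EGFP-dominant cells, where 28 of 72 moved, 2 turned and 42 stayed. That setting also moved 40 of 80 levels. Leaving mitochondrial and marker UMIs out of the total moved 60 of 110 levels but 10 of 117 ratios. No paired analysis was possible because each day is 1 library. Depth limits Sox9, Foxa2 in basal-like cells and the 72 AT2-like cells of day 0.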
